A study of Rattus norvegicus with 32 samples.

Results

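The stress MAP kinase cascade genes described here are 10 genes of the JNK and p38 pathways. They were chosen by name for that membership, with earlier results of these data known. They are the MAP3Ks Map3k1 and Map3k5, the MAP2Ks Map2k4, Map2k7, Map2k3 and Map2k6, the MAP kinases Mapk8, Mapk9 and Mapk14, and the p38-activated kinase Mapkapk2. Members were found by matching these symbols to the gene names that the scanner files give for non-control probes, which name 26583 genes in all. By this match 8 of the 10 genes had a probe, through 10 probes, and Map3k5 and Mapk8 had none.

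The measurements come from C6, an established rat glioma cell line, grown to confluence in medium with serum and profiled on single-colour Agilent 60-base oligonucleotide arrays. Control cells received neither peptide nor antagonist. Ang II cells received angiotensin II at 100 nM, a peptide hormone that signals through the AT1 and AT2 receptors. Ang II+Los cells were given 10 µM Losartan, an AT1 antagonist, and Ang II+PD123319 cells 10 µM PD123319, an AT2 antagonist, 30 minutes ahead of the same dose of Ang II. RNA was taken at 3 h and at 6 h, with 4 replicates in each of the 8 groups and thus 32 arrays. All groups are 1 cell line, no group received an antagonist alone, and the labels do not say whether replicates were separate cultures, so p-values measure the spread between these samples, which may be technical.

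MAP kinase cascades relay signals through tiers of kinases that phosphorylate one another. In the stress-activated branches, MAP3Ks such as Map3k1 (MEKK1) and Map3k5 (ASK1) activate MAP2Ks, of which Map2k4 (MKK4) and Map2k7 (MKK7) act on the c-Jun N-terminal kinases, while Map2k3 (MKK3) and Map2k6 (MKK6) act on the p38 kinases. The cascade is known for responses to cytokines, osmotic and oxidative stress, and it is run by phosphorylation, which transcript levels do not measure.

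Each replicate number was 1 slide holding all 4 treatments, and position on the slide always matched treatment, so position and treatment cannot be told apart. Between 55.9% and 64.7% of probes were well above background per array at 3 h and between 64.2% and 79.8% at 6 h. Of 5 glial markers, S100b, Vim, Nes and Cnp cleared background on each of the 32 arrays and Gfap on 2 of them, while the angiotensin receptor genes Agtr1a, Agtr1b and Agtr2 did so on none. The study evaluated AT1 and AT2 expression by qPCR and reported slight changes of both with Ang II at 3 h. A probe below background does not show that its gene is silent. Probes of Snap25, Mag, Aif1 and Itgam, markers of neurons, oligodendrocytes and microglia, read above background throughout, and those of Syt1, Ptprc, Pecam1 and Tek on no array. Values below are log2 signals after loess normalization within a time interval, differences are log2 fold changes, and tests are limma fits over the 16 arrays of that interval with the slide as a block. A gene is called where its unadjusted p was under 0.05, the cut-off that the study applied in its own tests, and adjusted p-values are Benjamini-Hochberg values over all genes tested. The array number limits precision, since the median standard error of a difference was 0.16 over 13630 genes at 3 h and 0.10 over 16446 genes at 6 h.

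The Control arrays differed among themselves in a way that touches every comparison with Control. Ddit3 encodes CHOP, a transcription factor of the endoplasmic reticulum stress response and a substrate of p38, and it was picked after its values were seen. At 3 h its log2 signals in Control replicates 1 to 4 were 10.25, 15.13, 15.03 and 15.02, against 10.20, 10.33, 15.05 and 10.08 with Ang II. At 6 h they were 10.21, 15.03, 10.42 and 14.87 in Control and 9.87, 12.80, 10.26 and 12.95 with Ang II. On the slides of replicates 2 and 4 Control thus stood above the highest treated array by 4.33 and 4.70 at 3 h and by 2.20 and 1.92 at 6 h. On the slides of replicates 1 and 3 that gap lay between -0.17 and 0.18, and at 3 h all 4 arrays of replicate 3 were high. Trib3, Atf4 and Herpud1, genes of the same stress response and likewise picked after the fact, went with it. Hspa5, picked in the same way, did so at 6 h only. At 3 h its Control stood above the highest treated array by 0.11, 0.09, 0.12 and 0.20 in replicates 1 to 4. On the slides of replicates 2 and 4 Control was the highest of the 4 arrays for 5 of 5 of these genes at each time. On the other slides that held for 1 or 2 of 5. How much of a difference in a MAP kinase gene goes with this split was not tested. The calls of members are therefore also given for replicates 1 and 3 alone, a choice made after seeing the data that leaves 2 arrays per group.

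**Figure D1:**
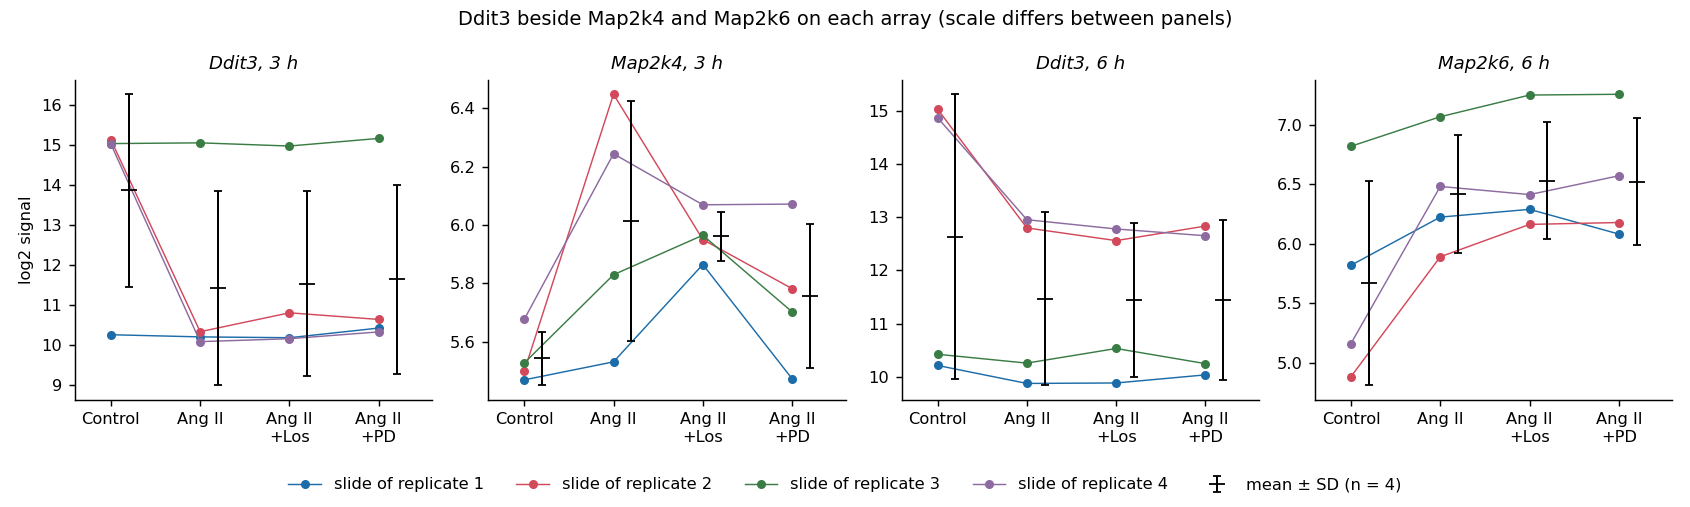
Log2 signal (y axis) of Ddit3, Map2k4 and Map2k6 in the 4 treatment groups (x axis), with coloured lines joining the 4 arrays of a slide and black bars giving the group mean ± SD (n = 4). Ddit3 was near 15 in Control replicates 2 and 4 at both times and dropped along those slides, where Map2k4 at 3 h and Map2k6 at 6 h showed their largest differences between Ang II and Control.

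With Ang II, 1 of 6 members tested was called at 3 h and 2 of 7 at 6 h. Map2k4, which feeds the JNK arm, was higher at 3 h. At 6 h Map2k6, an activator of p38, was higher, and Mapk14, which encodes p38α itself, was lower. Of all genes, 12.7% were called at 3 h and 21.5% at 6 h, so these counts are close to the background. The levels are those of whole cultures, in which fewer cells with a transcript and less of it per cell cannot be told apart. No member had an adjusted p under 0.05, nor did any of the genes tested in these comparisons.

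**Figure D2:**
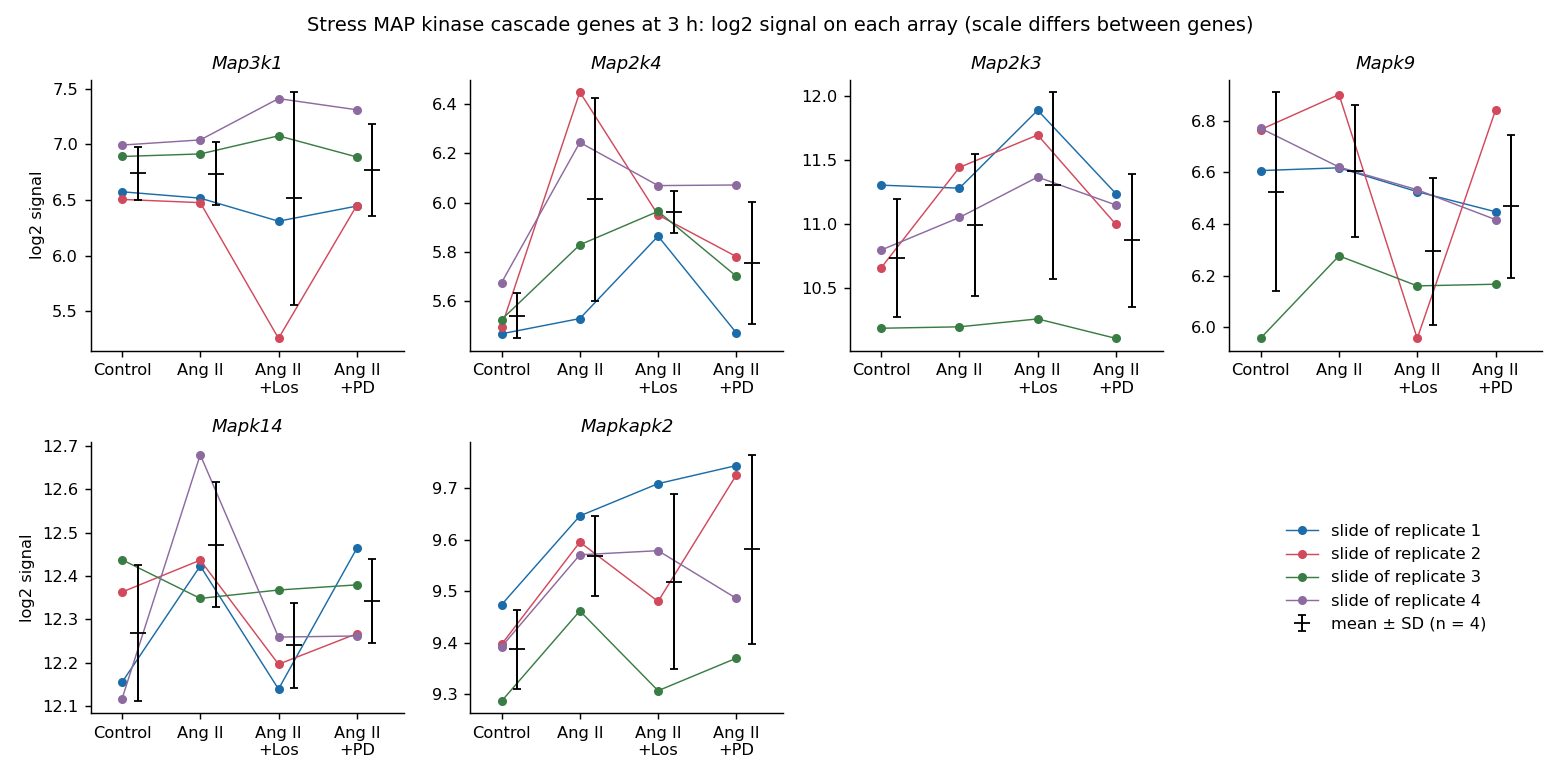
Log2 signal (y axis, own scale per gene) of the 6 members tested at 3 h in the 4 treatment groups (x axis), with coloured lines joining the 4 arrays of a slide and black bars giving the mean ± SD (n = 4). Map2k4 was higher with Ang II on every slide, by 0.06 to 0.95, and slides differed widely in Map2k3, Map3k1 and Mapk9.

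Both MAP3Ks lie at the top of the cascade, and Map3k1 could be measured at both times. At 3 h it had log2 signals of 6.57, 6.51, 6.89 and 6.99 in Control and of 6.52, 6.48, 6.91 and 7.04 with Ang II, which overlapped almost fully. The adjusted p was 0.994. At 6 h the signals were 5.99, 6.95, 6.41 and 6.87 in Control and 6.66, 6.30, 6.82 and 6.63 with Ang II. The difference of 0.05 (SE 0.19, adjusted p = 0.910) hid slides of opposite sign, at 0.67, -0.65, 0.41 and -0.23 for replicates 1 to 4. Replicates 2 and 4, where Ddit3 was high in Control, were those with lower Map3k1 after Ang II. With replicates 1 and 3 alone, the slides where its difference was above 0, Map3k1 was called, 0.54 higher (SE 0.12, adjusted p = 0.502). In that subset 4 of 7 members were called against 9.52% of all genes. They went both ways, with Map3k1 and Map2k6 higher and Map2k3 and Mapk14 lower. At 3 h the lowest Map3k1 value was 5.26, in replicate 2 of Ang II+Los, where the other 3 arrays of the group read 6.31, 7.08 and 7.41.

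Map2k4 encodes MKK4, which phosphorylates JNK and, in some settings, p38. It had 2 probes on the minus strand of chromosome 10, at chr10:52014623-52014682 and chr10:52041787-52041846 of the rn4 build, with 27104 bases between them. Both are shown because the gene's value is their mean, and their Ang II differences parted company at 6 h.
Map2k4 probe A_44_P462132: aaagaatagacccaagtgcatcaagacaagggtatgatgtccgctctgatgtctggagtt
Map2k4 probe A_64_P151718: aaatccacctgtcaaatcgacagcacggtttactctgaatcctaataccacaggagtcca

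At 3 h the mean of both Map2k4 probes was 5.47, 5.50, 5.53 and 5.68 in Control replicates 1 to 4 (5.54 ± 0.09, SD, n = 4). With Ang II it was 5.53, 6.45, 5.83 and 6.24 (6.01 ± 0.41, SD, n = 4). The Control arrays were tightly grouped, the Ang II arrays were spread out, and the groups overlapped through Ang II replicate 1. The tight grouping is that of the probe mean, as the Control SD was 0.35 at A_44_P462132 and 0.44 at A_64_P151718. The difference was 0.47 (SE 0.14, 95% interval 0.17 to 0.77), a 1.39-fold higher level, and was called with an adjusted p of 0.322, which ran from 0.258 to 1.00 over the alternatives. Slide by slide the differences were 0.06, 0.95, 0.30 and 0.57, higher in 4 of 4 pairs, where 24.2% of all genes kept 1 direction in all pairs. Without replicate 2 the difference was 0.31 (adjusted p = 0.733) and still called, and in replicates 1 and 3 alone it was 0.18 (adjusted p = 1.00) and not called. It was not called within the first scan session either, which held replicates 1 and 2 (0.51, adjusted p = 0.792), nor by the methods' paired t-test, and normexp background correction gave 0.19. The probes gave the same size at 3 h, with 0.47 at A_44_P462132 (adjusted p = 0.344) and 0.47 at A_64_P151718 (adjusted p = 0.361).

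By 6 h Map2k4 read 6.35, 5.93, 6.43 and 6.72 in Control and 6.26, 6.27, 6.56 and 7.00 with Ang II. The groups overlapped, and the difference of 0.17 (SE 0.09, adjusted p = 0.299) was not called. Here the probes differed, with 0.24 at A_44_P462132 (called, adjusted p = 0.123) and 0.09 at A_64_P151718 (not called, adjusted p = 0.736). The change in the difference from 3 h to 6 h, tested over all 32 arrays, was -0.30 (adjusted p = 0.699) and was not called.

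Among the other MAP2Ks, Map2k7, which is dedicated to JNK, could not be tested. Its probe cleared background on 1 of 16 arrays at 3 h and 8 of 16 at 6 h. Map2k3, which activates p38, was measured at both times. At 3 h it had log2 signals of 11.30, 10.66, 10.19 and 10.80 in Control and of 11.28, 11.44, 10.20 and 11.05 with Ang II, overlapping throughout (difference 0.26, SE 0.15, adjusted p = 0.468). At 6 h Control read 11.51, 10.62, 11.16 and 10.85 and Ang II 11.22, 10.93, 10.93 and 11.05, so that the Control arrays lay both above and below the treated ones. The slides had opposite signs, at -0.29, 0.31, -0.23 and 0.20. As with Map3k1, the sign followed the Ddit3 split, in the other direction. On replicates 1 and 3 alone Map2k3 was called lower at 6 h (-0.26, SE 0.09, adjusted p = 0.508).

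Map2k6, the other activator of p38, had 1 probe, on the plus strand at chr10:99973800-99973859 (rn4). It is shown as the probe of the member with the largest difference.
Map2k6 probe A_64_P014356: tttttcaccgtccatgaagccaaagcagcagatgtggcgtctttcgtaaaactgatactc

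At 3 h this probe cleared background on 4 of 16 arrays, all of them on the slide of replicate 1, where it read 5.47 in Control, 5.68 with Ang II, 5.16 with Ang II+Los and 5.44 with Ang II+PD123319. It was not tested at 3 h. At 6 h it cleared background on 16 of 16. Control replicates 1 to 4 read 5.82, 4.88, 6.82 and 5.16 (5.67 ± 0.86, SD, n = 4), and Ang II arrays read 6.22, 5.89, 7.07 and 6.48 (6.42 ± 0.50, SD, n = 4). Slides differed by more than treatments, the groups overlapped, and within every slide the Ang II array was the higher. The difference was 0.74 (SE 0.18, 95% interval 0.36 to 1.13), a 1.68-fold higher level, and was called with an adjusted p of 0.0828, which ran from 0.0562 to 1.00 over the alternatives. By slide it was 0.40, 1.01, 0.25 and 1.32, so that the slides of replicates 2 and 4, with Ddit3 high in Control, held the larger differences. In replicates 1 and 3 alone it was 0.33 (SE 0.11, adjusted p = 0.508), smaller but still called. Without the slide block (adjusted p = 1.00) and by the methods' paired t-test it was not called, and with normexp background correction it was 0.32.

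**Figure D3:**
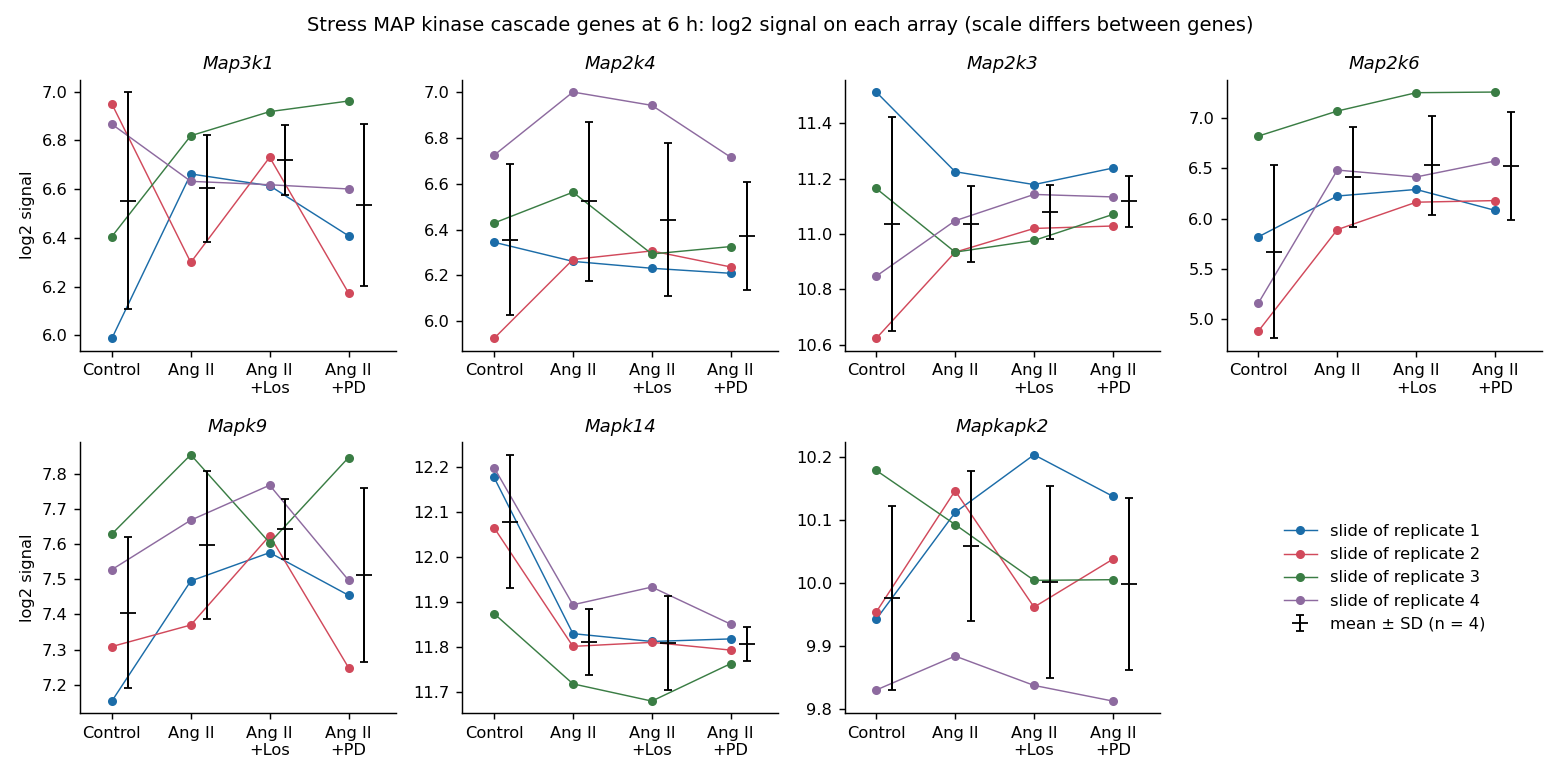
Log2 signal (y axis, own scale per gene) of the 7 members tested at 6 h in the 4 treatment groups (x axis), with coloured lines joining the 4 arrays of a slide and black bars giving the mean ± SD (n = 4). Map2k6 was higher and Mapk14 lower than Control in all 3 treated groups on every slide, and the lines of Map3k1 and Map2k3 cross.

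The MAP kinases themselves form the next tier. Mapk9, which encodes JNK2, had log2 signals at 3 h of 6.61, 6.77, 5.96 and 6.77 in Control and 6.62, 6.90, 6.28 and 6.62 with Ang II, a difference of 0.08 (SE 0.16, adjusted p = 0.860). At 6 h Control read 7.15, 7.31, 7.63 and 7.53 and Ang II 7.50, 7.37, 7.85 and 7.67. The Ang II array was the higher in 4 of 4 pairs, where 26.2% of all genes kept 1 direction. The groups overlapped, and the difference of 0.19 (SE 0.09, adjusted p = 0.256) was not called. Mapk8, which encodes JNK1, had no probe under its symbol. A probe named only by a transcript identifier is described in the files as mitogen-activated protein kinase 8, cleared background on 11 of 16 arrays at 3 h and 16 of 16 at 6 h, and differed by -0.05 with Ang II at 6 h (SE 0.14, adjusted p = 0.874). It was chosen after the members were looked up and is not counted with them.

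Mapk14, the p38α gene, was called at 6 h. Control read 12.18, 12.07, 11.87 and 12.20 (12.08 ± 0.15, SD, n = 4) and Ang II read 11.83, 11.80, 11.72 and 11.89 (11.81 ± 0.07, SD, n = 4). Control replicate 3 was the only Control array within the range of the Ang II group. The difference was -0.27 (SE 0.06, 95% interval -0.39 to -0.15), a 1.20-fold lower level, with an adjusted p of 0.0676, which ran from 0.0469 to 1.00 over the alternatives. By slide it was -0.35, -0.26, -0.16 and -0.31, lower in 4 of 4 pairs. In replicates 1 and 3 alone it was -0.25 (SE 0.10, adjusted p = 0.522), so its size stayed close to that over all slides. It was called under 15 of 15 alternatives.

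At 3 h Mapk14 was not called, and its mean difference had the other sign. Control arrays read 12.15, 12.36, 12.44 and 12.12 and Ang II arrays 12.42, 12.44, 12.35 and 12.68, overlapping groups with a difference of 0.20 (SE 0.11, adjusted p = 0.450) and slide values of 0.27, 0.07, -0.09 and 0.56. The difference at 6 h minus that at 3 h was -0.47 (SE 0.12, adjusted p = 0.669), where 7.17% of 13617 genes were called. Mapk14 was the 1 member of 6 called in this test. On replicates 1 and 3 alone the value was -0.34 (adjusted p = 1.00) and was not called.

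Mapkapk2 encodes MK2, which p38 phosphorylates and which in turn controls the stability of inflammatory transcripts. At 3 h it had log2 signals of 9.47, 9.40, 9.29 and 9.39 in Control and of 9.65, 9.60, 9.46 and 9.57 with Ang II. The groups barely overlapped and the slides were almost equal, at 0.17, 0.20, 0.18 and 0.18. The difference of 0.18 (SE 0.09, adjusted p = 0.410) was not called. It was called by the methods' paired t-test, which takes the spread from 1 gene alone, with no filter on dim probes (adjusted p = 0.394), and at probe A_64_P093367 alone (0.24, adjusted p = 0.375). For replicates 1 and 3 alone the value was 0.17, the same size as over all slides. At 6 h the difference was 0.08 (SE 0.07, adjusted p = 0.530), from 9.94, 9.95, 10.18 and 9.83 in Control and 10.11, 10.15, 10.09 and 9.88 with Ang II.

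**Figure D4:**
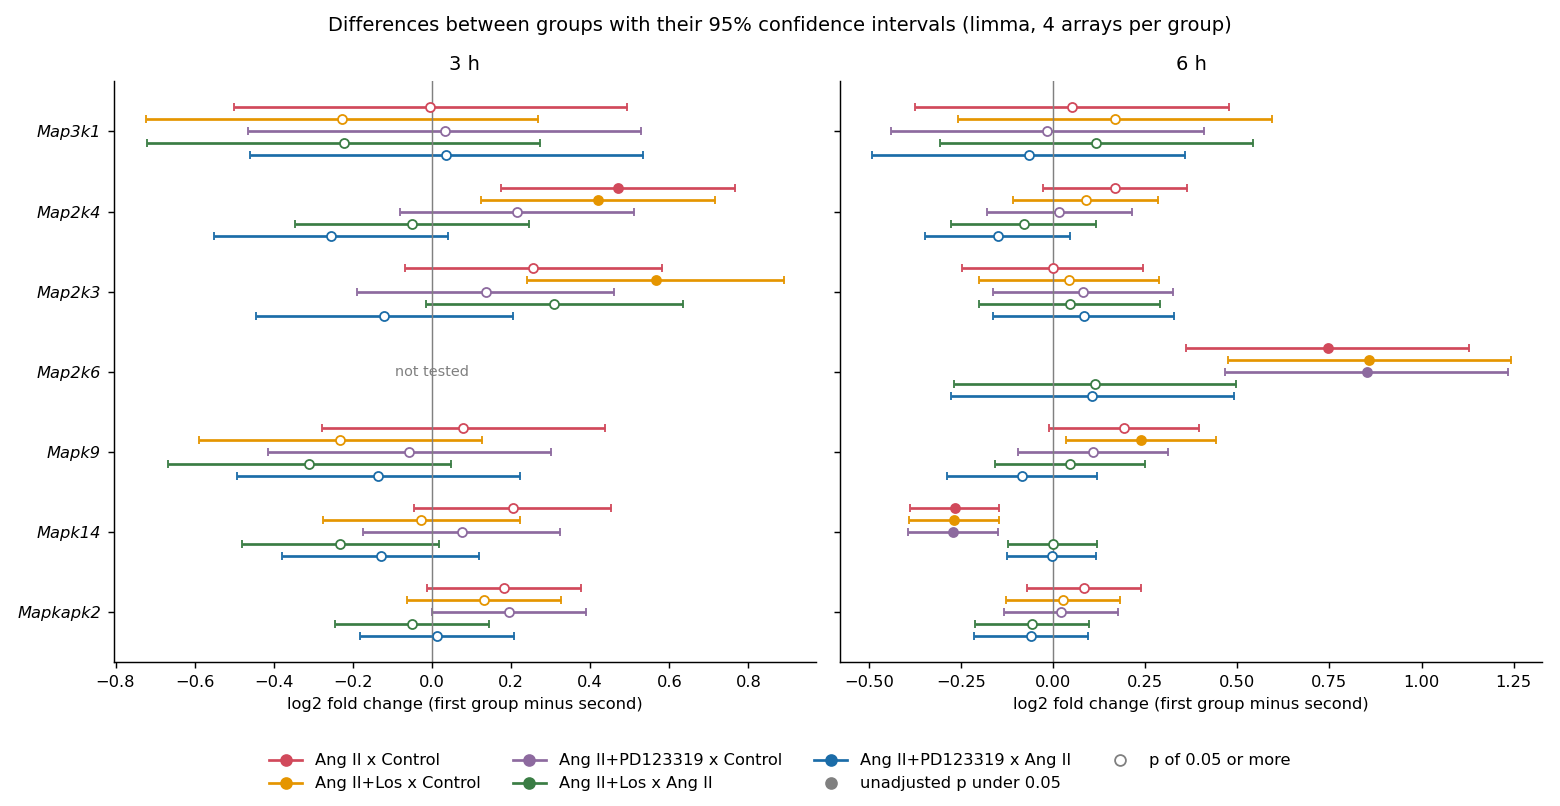
Log2 fold change (x axis) with its 95% confidence interval from limma for each member tested (rows) in 5 comparisons (colours) at 3 h and 6 h (panels), filled where the unadjusted p was under 0.05. At 6 h Map2k6 (0.74 to 0.86) and Mapk14 (-0.27) stood off 0 against Control in all 3 treated groups, and every interval against Ang II includes 0.

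Losartan was given to ask what part of the Ang II response runs through AT1. In Ang II+Los x Ang II, 0 of 6 members were called at 3 h, where 11.0% of all genes were, and 0 of 7 at 6 h, where 1.99% were. The methods' paired t-test called 0 members at both times as well, where it called 2.87% of all genes at 3 h and 4.57% at 6 h. The lowest adjusted limma p of a member at 3 h was 0.426. The share of all genes at 3 h leaned on replicate 2. Without it, 272 of 13630 genes were called in place of 1502, and 1 of 6 members, Map2k3. At 3 h 5 of 6 members read lower with Losartan, with a median of -0.14 against 0.00 for all genes. With a replicate left out that median ran from -0.21 to 0.03, above 0 without replicate 2, and in replicates 1 and 3 alone it was -0.03. Map2k3 was the exception (0.31, SE 0.15, adjusted p = 0.426, higher in 4 of 4 pairs, where 15.5% of all genes kept 1 direction), with Ang II+Los signals of 11.89, 11.69, 10.26 and 11.37. Mapk9 was lower in 4 of 4 pairs (-0.31, SE 0.16, adjusted p = 0.426), reading 6.52, 5.96, 6.16 and 6.53, and its slide of replicate 2 gave -0.94 while the others gave -0.09 to -0.12. Mapk14 read 12.14, 12.20, 12.37 and 12.26 (-0.23, SE 0.11, adjusted p = 0.426). The Map2k4 difference was -0.05 (95% interval -0.35 to 0.24), and 0.23 in replicates 1 and 3 alone.

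At 6 h the members called with Ang II had close to the same mean levels with Losartan. Map2k6 read 6.29, 6.16, 7.25 and 6.41 with Ang II+Los, which differed from Ang II by 0.11 (95% interval -0.27 to 0.50). Mapk14 read 11.81, 11.81, 11.68 and 11.93, with a difference from Ang II between -0.12 and 0.12 at 95%. Beside these stand Ang II x Control differences of 0.74 for Map2k6 and -0.27 for Mapk14, which carry their own error. Which receptor those differences ran through was not tested.

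PD123319 was given to ask the same of AT2. In Ang II+PD123319 x Ang II, 0 of 6 members were called at 3 h, where 3.01% of all genes were, and 0 of 7 at 6 h, where 6.37% were. The methods' paired t-test called 1 member at each time, Mapk9 at 3 h (-0.14) and Map2k3 at 6 h (0.08), where it called 4.04% and 8.70% of all genes. Map2k4 at 3 h read 5.47, 5.78, 5.70 and 6.07 with Ang II+PD123319, lower than with Ang II in 4 of 4 pairs (-0.26, SE 0.14, 95% interval -0.55 to 0.04). Of all genes, 13.9% kept 1 direction in all 4 pairs there. It was -0.09 in replicates 1 and 3 alone and -0.12 without replicate 2. At 6 h Map2k6 read 6.08, 6.18, 7.26 and 6.57 (difference from Ang II 0.11, 95% interval -0.28 to 0.49) and Mapk14 read 11.82, 11.79, 11.76 and 11.85 (95% interval -0.13 to 0.12).

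The antagonist groups were set against the same Control arrays as the Ang II group, so the comparisons with Control are not independent of each other. At 6 h Ang II+Los x Control called 3 of 7 members, where 22.0% of all genes were called. Map2k6 was 0.86 higher (SE 0.18, adjusted p = 0.0431, slides 0.47, 1.28, 0.43 and 1.25), and Mapk14 was lower, at -0.27 (SE 0.06, adjusted p = 0.0431). Mapk9 was 0.24 higher (adjusted p = 0.165), from Ang II+Los signals of 7.58, 7.62, 7.60 and 7.77, and without replicate 1, without replicate 2 or without replicate 4 it was not called (0.18, 0.21 and 0.24), nor in replicates 1 and 3 alone (0.20, adjusted p = 0.613). Adjusted p-values under 0.05 were reached by 1.36% of all genes. Over the alternatives the adjusted p ran from 0.0310 to 0.999 for Map2k6 and from 0.0334 to 0.999 for Mapk14.

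Ang II+PD123319 x Control at 6 h called 2 of 7 members, where 22.9% of all genes were called and 1.38% had an adjusted p under 0.05. Map2k6 was 0.85 higher (SE 0.18, adjusted p = 0.0436, slides 0.26, 1.30, 0.44 and 1.41). Mapk14 was lower, at -0.27 (SE 0.06, adjusted p = 0.0415), and its highest antagonist array, 11.85, lay under the lowest Control array, 11.87. Such groups without overlap were found for 2.04% of all genes. The adjusted p ran from 0.0360 to 0.900 for Map2k6 and from 0.0369 to 0.773 for Mapk14 over the alternatives. With only replicates 1 and 3, Map2k6 was 0.45 higher with Ang II+Los (adjusted p = 0.433) and 0.35 with Ang II+PD123319 (adjusted p = 0.439), both called. The Mapk14 values there were -0.28 (adjusted p = 0.464, called) and -0.24 (adjusted p = 0.485, not called). Without the slide block Map2k6 was called in neither comparison, and with normexp it was 0.30 and 0.29.

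At 3 h Ang II+Los x Control called 2 of 6 members, where 21.7% of all genes were called. Map2k4 was 0.42 higher (SE 0.14, adjusted p = 0.176, from 0.159 to 0.836 over the alternatives), from Ang II+Los signals of 5.86, 5.95, 5.96 and 6.07, every one above every Control array. Groups did not overlap for 1.53% of all genes. For Map2k4 this held for the probe mean only, and each probe alone overlapped. At A_44_P462132 the lowest Ang II+Los array was 6.26 and the highest Control array 6.48. At A_64_P151718 these were 4.51 and 5.33. The slides gave 0.40, 0.45, 0.44 and 0.39, and replicates 1 and 3 alone gave 0.42 (adjusted p = 0.705, called), the same size as all slides together. Within the first scan session it was 0.42 (adjusted p = 0.337) and not called. Scaling to the 75th percentile gave 0.28 and normexp 0.16, neither called, and probe A_64_P151718 alone gave 0.34, not called. Map2k3 was 0.57 higher (SE 0.15, adjusted p = 0.176, from 0.0993 to 0.836 over the alternatives), with slides at 0.58, 1.04, 0.07 and 0.57. It was not called without the slide block or in replicates 1 and 3 alone (0.33, adjusted p = 0.705), nor within the second scan session (0.32). In Ang II+PD123319 x Control at 3 h 0 of 6 members were called, where 7.58% of all genes were. The member nearest to the threshold there was Mapkapk2 (0.19, SE 0.09, adjusted p = 0.655), with Ang II+PD123319 signals of 9.74, 9.73, 9.37 and 9.49.

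**Figure D5:**
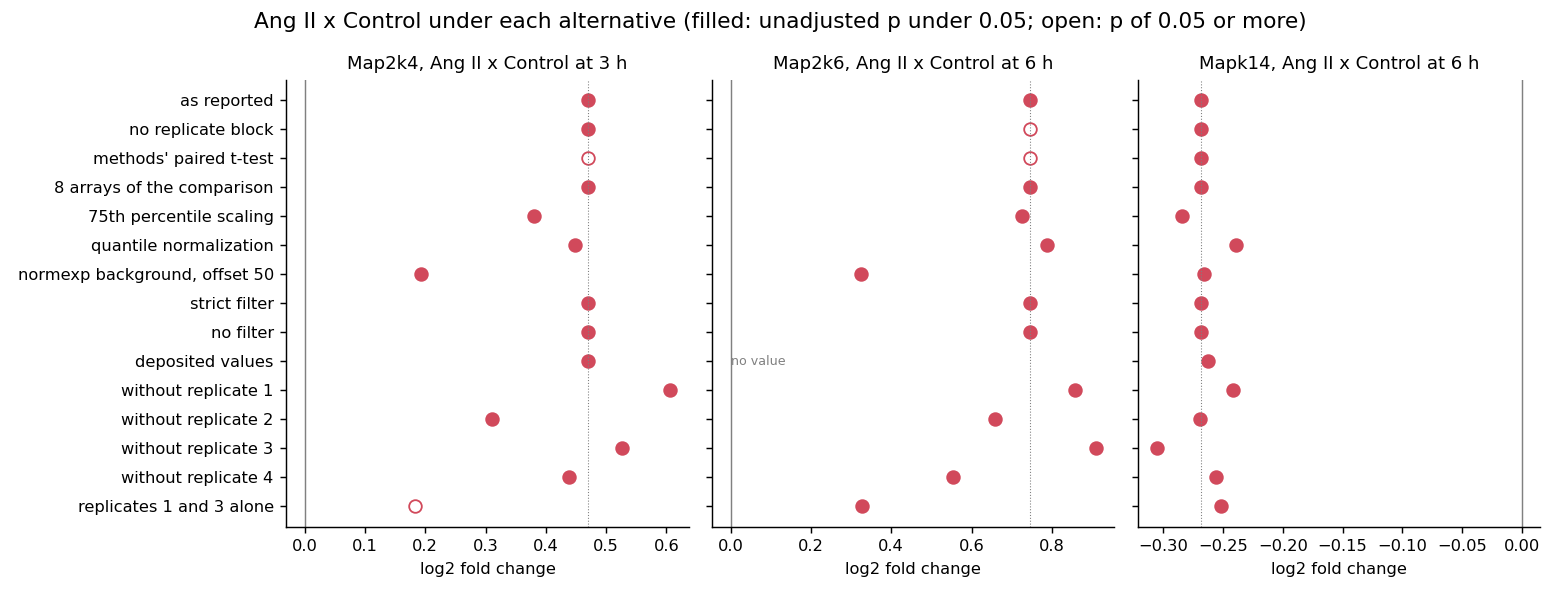
Log2 fold change with Ang II against Control (x axis) of Map2k4 at 3 h, Map2k6 at 6 h and Mapk14 at 6 h (panels) as reported and under each alternative (rows), filled where the unadjusted p was under 0.05. Every value keeps its direction, Mapk14 stays between -0.31 and -0.24, and Map2k4 and Map2k6 shrink to 0.18 and 0.33 in replicates 1 and 3 alone.

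Promoter sequences were looked at for Map2k4 and Map2k6, the members called higher with Ang II at 3 h and at 6 h. The 250 bases before the annotated start are given from RefSeq on the GRCr8 build, at chr10:50947040-50947289 (minus strand) for Map2k4 and chr10:95872497-95872746 (plus strand) for Map2k6. Capitals mark a match to a loose AP-1 pattern (TGANTCA, with any middle base). They also mark short CRE cores (TGACG on either strand), part of the element bound by ATF and CREB factors.
Map2k4 upstream 250 bases: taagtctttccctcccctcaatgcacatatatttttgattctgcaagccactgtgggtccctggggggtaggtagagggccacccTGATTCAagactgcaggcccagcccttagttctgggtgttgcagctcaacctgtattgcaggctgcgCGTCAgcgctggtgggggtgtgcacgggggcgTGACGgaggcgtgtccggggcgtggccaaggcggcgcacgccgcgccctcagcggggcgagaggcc
Map2k6 upstream 250 bases: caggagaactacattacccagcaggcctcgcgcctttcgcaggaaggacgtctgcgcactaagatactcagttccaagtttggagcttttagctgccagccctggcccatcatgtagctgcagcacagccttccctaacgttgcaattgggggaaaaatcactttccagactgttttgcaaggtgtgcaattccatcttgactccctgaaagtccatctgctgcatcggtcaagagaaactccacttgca
Map2k4 held 1 match to the loose AP-1 pattern, TGATTCA, 165 to 159 bases before the start. It held short CRE cores at 98 to 94 and 66 to 62 bases before the start. Neither pattern was found in the Map2k6 window. Of 9 members in the promoter table, 1 matched the loose AP-1 pattern, 0 the full CRE (TGACGTCA, which contains the short core) and 4 the short core. The same patterns were found in 6.34%, 1.59% and 18.2% of 33469 promoters of that length. The members with the short core were Map2k4, Map3k5, Mapk8 and Mapkapk2. GC content ran from 51.2% in Map2k6 to 80.8% in Map3k5, where the median of all promoters was 51.2%. A match of letters is a description of the sequence and no measure of binding.

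The wider pathway list held 71 further genes of the JNK and p38 cascades, of which 62 were on the array and 49 were tested at 3 h. With Ang II at 3 h 6 were called higher and 4 lower, against 5.30% and 7.40% of all genes. Upstream kinases and adaptors gave 3 higher of 22, among them Map3k11 (MLK3, 0.78, SE 0.22, adjusted p = 0.322) and Map3k4 (MEKK4, 0.60, SE 0.20, adjusted p = 0.325), both MAP3Ks of these branches. Map3k11 signals were low, with means of 3.78 in Control and 4.56 with Ang II, and dim 3 h values can be bounds. Dusp8, a phosphatase that acts on JNK and p38, was lower (-0.83, SE 0.25, adjusted p = 0.322) and Mapk13, which encodes p38δ, as well (-0.53, SE 0.17, adjusted p = 0.325). Mapk13 signals were low too, with means of 4.69 in Control and 4.16 with Ang II. Dusp8 slides gave -0.11, -1.76, -0.35 and -1.11, again largest in replicates 2 and 4. Dusp8 was the 1 called of 6 phosphatases, Mapk13 the 1 called of 2 other JNK and p38 kinases, and 0 of 3 scaffolds were called. Of 5 kinases downstream of p38, 1 was called higher and 1 lower, and of 11 substrates and targets, among them Ddit3, 2 higher and 1 lower.

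With Losartan against Ang II at 3 h 0 genes of this list were called higher and 5 lower, against 4.93% and 6.09% of all genes. They included Ppm1a (-0.78, SE 0.28, adjusted p = 0.426) and Ppm1b (-0.49, SE 0.21, adjusted p = 0.426), phosphatases that switch off stress kinases, and Map4k4, an upstream kinase (-0.32, SE 0.14, adjusted p = 0.426). Replicate 2 gave -2.25 for Ppm1a and -1.51 for Ppm1b, far beyond the other slides. PD123319 against Ang II at 3 h called 0 genes higher and 1 lower, against 2.11% and 0.902% of all genes. It was Elk4, a transcription factor of the ternary complex family (-0.28, SE 0.11, adjusted p = 1.00).

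At 6 h 53 genes of the list were tested, and with Ang II 5 were called higher and 4 lower, against 10.6% and 10.9% of all genes. Map4k3, an upstream kinase of JNK, was 0.75 higher (SE 0.15, adjusted p = 0.0676), and its groups did not overlap, as for 1.83% of all genes. Mapk11, which encodes p38β, was lower like Mapk14 (-0.37, SE 0.10, adjusted p = 0.105), with slides at -0.19, -0.34, -0.50 and -0.44, and so was the adaptor Traf2 (-0.24, SE 0.07, adjusted p = 0.119). By role, upstream kinases and adaptors gave 2 higher and 2 lower of 25, kinases downstream of p38 1 higher of 5, phosphatases 1 higher of 7, and substrates and targets 1 higher and 1 lower of 11. Losartan against Ang II called 0 of 53 at 6 h. PD123319 against Ang II called 2 higher and 1 lower, against 3.88% and 2.49% of all genes, led by Map3k12 (DLK, a MAP3K of JNK, 0.31, SE 0.07, adjusted p = 0.429) and with Dusp10, a phosphatase of JNK and p38 (-0.30, SE 0.13, adjusted p = 0.762).

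The ERK cascade was taken as a comparison list of 9 genes with 8 tested at each time. With Ang II at 3 h 1 of 8 was called, where 12.7% of all genes were. It was Map2k5 (MEK5), which was higher (0.66, SE 0.23, adjusted p = 0.338). At 6 h 2 of 8 were called with Ang II, where 21.5% of all genes were. Among them Map2k1 (MEK1) was higher (0.23, SE 0.07, adjusted p = 0.129).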

How the data were processed

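RNA of 32 C6 samples was hybridised to single-colour Agilent arrays with 30367 non-control probes. The intensity values were deposited as scanner output of Feature Extraction 9.5.3.1, per the file headers, with the background subtracted. For the values used here, 3 h signals not marked positive and significant were set to their error. Dim values at 3 h are thus bounds. The authors also deposited log2 values, which equal log2 of the processed intensity (100% of 561803 values, tolerance 1e-06) with 38.2% left blank.

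Processed intensities were taken to log2 and normalized by cyclic loess (span 0.7, 3 iterations) separately at 3 h and 6 h, so levels were not compared between times. A probe was kept if the scanner software marked it above background (its stricter mark) in every replicate of 1 or more groups, with no more than 2 gaps, and probes of a gene were averaged. Differences were fitted in limma 3.58.1 (R 4.3.3) with the slide as a block, and the 3 h and 6 h differences were compared over all 32 arrays. Scripts were tested on simulated data. Same-numbered arrays share a slide, and their deviations correlated at 0.15 to 0.92 at 3 h and 0.55 to 0.83 at 6 h. Arrays of different numbers reached at most 0.41 at 3 h and 0.19 at 6 h, so the ranges overlapped at 3 h only. The numbers were taken to pair the samples.

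The 10 members and the pathway lists were chosen with earlier results of these data known. All members were described, and from the lists the genes called with 1 direction in all 4 pairs, at most 5 per comparison by lowest p. Alternatives were the methods' paired t-test, no block, only the 8 arrays compared, other scalings, background corrections and filters, the deposited values, each scan session, single probes, each replicate left out and, chosen after seeing the data, replicates 1 and 3 alone. Promoters came from RefSeq (GRCr8) and probe positions (rn4) from the scanner files. The expression of Map3k5 and Mapk8 was not analysed here, and some results that the naming rule covers are not reported here.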

Additional observations from a re-analysis of the deposited data

Results flagged for a closer look

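Mapk14, the p38α gene, differed from Control in opposite directions at the 2 times, by 0.20 at 3 h and by -0.27 at 6 h. The test of the change itself gave -0.47 (SE 0.12), past the unadjusted threshold, with an adjusted limma p of 0.669. Over the alternatives the value ran from -0.61 to -0.34. In replicates 1 and 3 alone it was the lowest in size (-0.34) and not called.

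Map2k4 in replicate 4 of Ang II+Los at 6 h read 6.94, while the nearest array of the group read 6.31. The other groups' replicate 4 arrays on that slide read 6.72, 7.00 and 6.72, so the slide as a whole was high. It was the only value of its kind among 52 groups looked at, and chance gives about 1 in 20.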

How the results depend on the processing

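The members called with Ang II kept their direction under every alternative run. Counts of members called moved as follows, out of 6 at 3 h and 7 at 6 h unless stated. Brackets give the number of all genes called under the same setting. With Ang II at 3 h the count of 1 became 2 under normexp background correction (1703 of 13630 genes). It was 2 of 8 with no filter (2958 of 26583 genes) and 0 in replicates 1 and 3 alone (328 of 13630 genes). At 6 h the count of 2 became 1 without the replicate block (663 of 16446 genes) and 4 in replicates 1 and 3 alone (1566 of 16446 genes). The median of 0.08 became 0.042 in replicates 1 and 3 alone and 0.094 to 0.14 with a replicate left out. For Losartan against Ang II at 3 h the count of 0 became 1 under 75th percentile scaling (1477 of 13630 genes) and normexp (1593 of 13630 genes). It was 1 of 8 with no filter (1939 of 26583 genes) and 0 to 1 with a replicate left out (272 to 1848 of 13630 genes). For PD123319 against Ang II the methods' paired t-test called 1 at 3 h (551 of 13630 genes) and 1 at 6 h (1431 of 16446 genes) in place of 0. Its 3 h median of -0.12 became -0.078 under normexp, -0.054 with no filter, -0.058 in replicates 1 and 3 alone and -0.14 to -0.071 with a replicate left out, and its 6 h median of -0.06 became -0.057 to -0.0048. For Ang II+Los x Control at 3 h the count of 2 became 1 without the block (657 of 13630 genes) and by the paired t-test (609 genes). The same held under 75th percentile scaling (3076 genes) and normexp (2921 genes) and in replicates 1 and 3 alone (660 genes). The median became -0.13 over 8 members with no filter and 0.30 over 4 members in the deposited values. For Ang II+PD123319 x Control at 3 h the count of 0 became 1 of 8 with no filter (2576 of 26583 genes) and 1 of 4 in the deposited values (685 of 9257 genes). At 6 h, Ang II+Los x Control went from 3 to 1 without the block (683 of 16446 genes). Ang II+PD123319 x Control went from 2 to 1 without the block (902 of 16446 genes) and by the paired t-test (1360 of 16446 genes). It was 1 of 6 in the deposited values (2703 of 11228 genes). The number of members whose Losartan difference changed between the times was 0 in all slides, 1 in replicates 1 and 3 alone and 0 to 2 with a replicate left out. In replicates 1 and 3 alone, 2 values changed sign and were called, Map2k3 in Ang II+Los x Control at 6 h (-0.26) and Map3k1 in Ang II+PD123319 x Control at 6 h (0.49). The causes were not tested.

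Scaling moved the direction of calls over all genes. With Ang II at 3 h 41.7% of calls were higher, against 21.9% under 75th percentile scaling and 30.6% under quantile normalization, and the median of all genes moved by at most 0.06. Over all genes Ang II at 3 h called 1732, from 328 to 2958 over the alternatives, and at 6 h 3535, from 663 to 3822. Among the members, dim probes limit Map2k6 and Map2k7 at 3 h, and deposited values gave no Map2k6 value at 6 h. In the wider list, the signals of Map3k11 and Mapk13 were low at 3 h too.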

Other observations

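For each member well above background on all 32 arrays, the 3 genes with the most similar log2 signals were listed by Pearson correlation over the arrays after subtracting each slide's mean, among 7379 genes. The arrays share slides and the genes share treatment and RNA state, so these are descriptions. Map2k4 was closest to Uhmk1 (0.89), Pank3 (0.87) and Ezr (0.87). Map2k3 was closest to Cdc34 (0.93), Prpf4b (0.92) and Nde1 (0.90). Map3k1 was closest to Pdia3 (0.89), an endoplasmic reticulum chaperone, Ppat (0.89) and Cfl2 (0.88). The genes closest to Mapk9 included Sec23a (0.89), which acts in vesicle export from the endoplasmic reticulum, and Pitpna (0.88). Mapk14 was closest to Tmem9b (0.80), Xrn2 (0.79) and Map3k7 (0.77), the last of which encodes TAK1, a MAP3K of the p38 and JNK branches. Mapkapk2 was closest to Nrbp (0.78), Sh2bpsm1 (0.77) and Klhdc3 (0.77). Among the members themselves, Map2k3 and Map2k4 correlated at 0.69 and Map3k1 and Mapk9 at 0.67.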
